A study of Mus musculus with 8 samples.

Results

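The genes described here are the 37 neighbours of Slc4a3 on mouse chromosome 1 that lie within 1 Mb of it, out of 23282 genes in the counts table. Members were selected by position, though not every row of the table in this stretch is among them, and Slc4a3 itself was left out. All 37 precede Slc4a3 in chromosome order and 0 follow it: RefSeq lists 7 gene models within 1 Mb on the other side, of which 1, a non-coding model, has a row in the table, with at most 0.0656 CPM (read counts scaled to the size of the library). A further 4 rows of the table in the same stretch are not among the 37, and none of these exceeded 1.16 CPM in a library. The libraries, 4 per genotype, were made from hearts of 4-month-old males of the FVB/N strain, either wild-type or AE3-null. AE3 is the chloride/bicarbonate exchanger of heart muscle that Slc4a3 encodes. The labels give no other treatment or allele, and how the null allele was built is not given in the sources used here. Nor is the strain in which it was made, so whether the stretch next to Slc4a3 has FVB/N sequence in AE3-null mice is not known here, and the nearest genes' values cannot be told apart from any such difference. The libraries are not tied to animals in the labels, so p-values measure the spread between libraries.

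Neighbouring genes can share regulatory DNA: adjacent starts on opposite strands that face away from each other may use a common promoter, and an enhancer can act on several genes of a stretch. The stretch before Slc4a3 holds a row of muscle genes. Des encodes desmin, the intermediate filament that links myofibrils to each other and to the cell membrane, Speg a kinase of the junction between the surface membrane and the calcium store, and Obsl1 the obscurin-like protein of the M-band, the crosslink in the middle of the sarcomere. Between them lie housekeeping genes of autophagy, protein quality control and sugar transfer, and genes whose known sites of action are outside the heart, such as the Hedgehog ligand Ihh and the hormone subunit gene Inha.

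DNA at or near the start sites of 4 of the 5 neighbours closest to Slc4a3 is shown here because these genes were among those with the largest differences between genotypes. The sequences are from RefSeq, build GRCm38.p6, which is not the build of the counts (mm9). Bases inside any RefSeq gene were left out, as were exons of GENCODE release M21 other than those of Obsl1. Chpf and Tmem198 face away from each other, and the whole stretch between their starts is 60 bases (chr1:75479472-75479531, plus strand, 5′ to 3′ towards Tmem198). Its capitals mark the cAMP response element TGACGTCA, which reads the same on both strands. The Obsl1 stretch (chr1:75506487-75506702, minus strand) ends 34 bases short of the start. It has 4 E-boxes, CANNTG, in capitals, the core letters bound by many muscle and other transcription factors. The Stk11ip stretch (chr1:75521279-75521528, plus strand) has 1 GC box, GGGCGG or its reverse complement, in capitals. Capitals mark only the motif named for each stretch. The Chpf and Tmem198 stretch also holds a GC box, and the Obsl1 stretch a CCAAT box (CCAAT or its reverse complement), both left in lower case.
Chpf and Tmem198: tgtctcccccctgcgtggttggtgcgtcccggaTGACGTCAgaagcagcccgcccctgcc
Obsl1: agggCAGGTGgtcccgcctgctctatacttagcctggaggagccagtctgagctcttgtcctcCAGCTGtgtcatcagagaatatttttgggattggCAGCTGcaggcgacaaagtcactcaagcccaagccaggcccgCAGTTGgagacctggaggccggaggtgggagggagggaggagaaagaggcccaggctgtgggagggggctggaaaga
Stk11ip: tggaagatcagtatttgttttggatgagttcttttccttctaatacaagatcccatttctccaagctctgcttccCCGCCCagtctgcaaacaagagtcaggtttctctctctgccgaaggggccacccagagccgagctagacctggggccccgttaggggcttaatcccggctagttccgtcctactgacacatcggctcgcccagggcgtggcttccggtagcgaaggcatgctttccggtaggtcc

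A window of 250 bases before a start was in the RefSeq table for 35 of the 37 members, and 7 motifs were searched on both strands without regard to overlap between motifs. The table's window for Inha lies before an internal start of that gene, inside its outermost RefSeq model, so it is counted among the 35 but was not read at the outermost start. The GC box was in 22 of these 35 genes (62.9%), against 35.4% of all 27025 genes with such a window. The cAMP response element was in 3 members (8.57%), among them Chpf and Tmem198, whose windows overlap, against 1.77% of all genes. The E-box was in 22 members (62.9%) against 69.3%. Of Chpf, Tmem198, Obsl1 and Stk11ip it was in Obsl1 only. The CCAAT box, CCAAT, was in 12 members (34.3%) against 37.5%, and the TATA box, TATAAA, in 2 (5.71%) against 14.3%. The MEF2 site was in 1 member (2.86%) against 3.42% of all genes, and the CArG box in 0 of 35 against 1.62%. A match is only a run of letters and does not show that a factor binds there.

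Of the 37 members, 28 had enough reads for the test, edgeR's minimum-count filter at 10 counts. Of the 28, 7 (25%) were lower in AE3-null hearts at an adjusted p under 0.05 in edgeR's quasi-likelihood test, and 0 were higher. Over all 14136 tested genes 6.47% passed, 3.31% lower and 3.16% higher. No member was higher at an unadjusted p under 0.05 either (0 higher, 8 lower), and DESeq2 and limma voom also called 0 higher. At that unadjusted edgeR p, 1384 of all 14136 tested genes were higher and 1590 lower. In 8 of the 28 members all 4 AE3-null libraries lay below all 4 wild-type libraries. Over all tested genes the genotypes did not overlap in 12.2%, and in 6.15% with AE3-null lower. The median log2 fold change of the 28 members was -0.05, against -0.0018 over all tested genes, so the typical member was close to the rest of the table and a few members were far below it.

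The targeted gene itself, Slc4a3, fell from 383.5 ± 4.6 CPM (SD, n = 4) to 32.9 ± 1.26 CPM (SD, n = 4), or 8.58% of the wild-type mean. Its 8 libraries matched their labels. The tested member next to it in chromosome order is Stk11ip, followed outward by Inha, Obsl1, Tmem198 and Chpf. In each of these 5 the genotypes did not overlap, and 4 of the 5 were called. This group of 5 was chosen after its values were seen. Its median log2 fold change was -0.78, and that of the other 23 tested members was -0.01, of which 3 were called (13%). The sixth tested member outward, Gmppa, had a log2 fold change of 0.11 (SE 0.055, edgeR adjusted p 0.281).

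**Figure D1:**
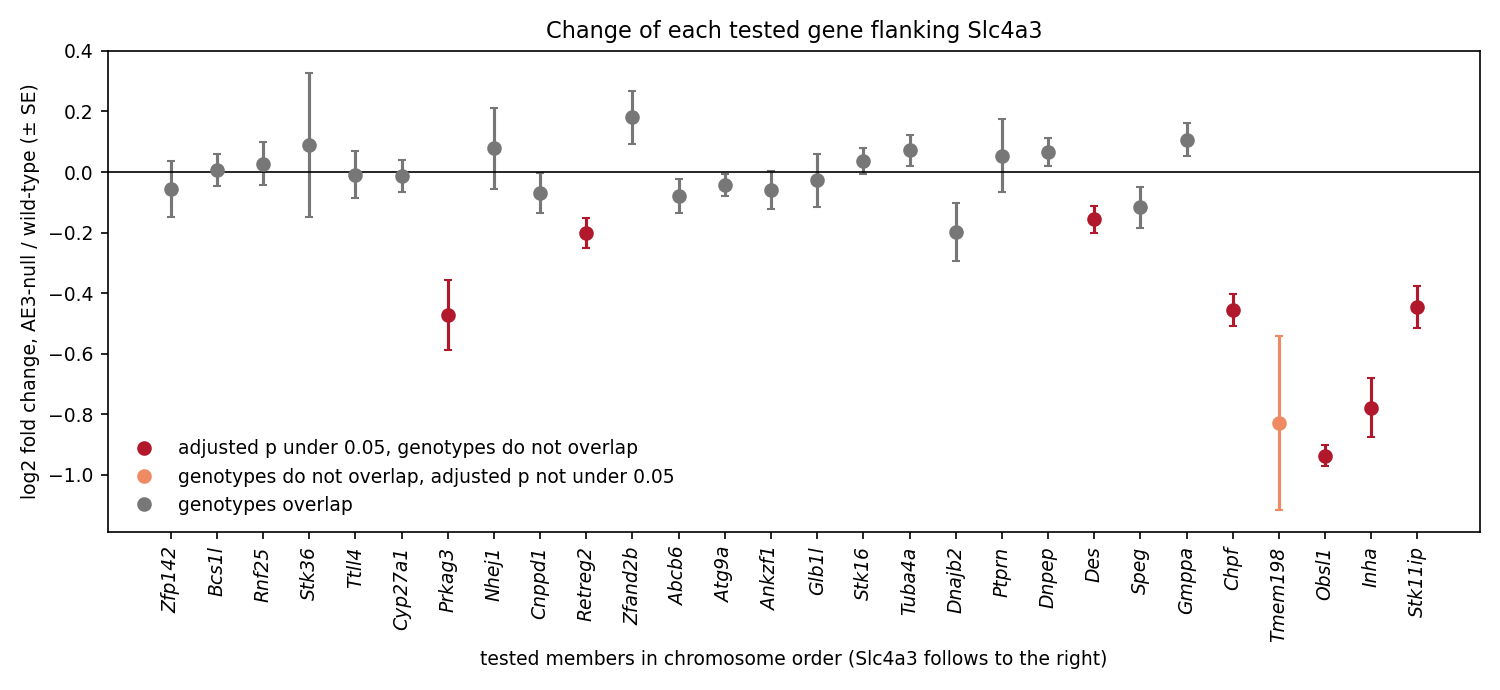
The log2 fold change of AE3-null against wild-type hearts (y axis, with its SE) of the 28 tested members, in chromosome order on the x axis with Slc4a3 beyond the right end. The 5 members at the right end lie between -0.94 and -0.45, while Gmppa beside them is at 0.11, and to its left only Prkag3, Retreg2 and Des are marked as called.

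Stk11ip (Entrez 71728) encodes a binding partner of the kinase LKB1 that interacts with it in the cytoplasm. Its level was 18.5, 19.3, 20.3 and 19.8 CPM in wild-type replicates 1 to 4, and 15.1, 13.6, 14.9 and 13.4 CPM in AE3-null replicates 1 to 4. Each AE3-null library was below each wild-type library. Stk11ip fell by 0.45 on the log2 scale (SE 0.068, edgeR adjusted p 0.00107), to 73.2% of the wild-type mean.

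Inha (Entrez 16322) encodes the alpha subunit of inhibin, a gonadal hormone that restrains the release of follicle-stimulating hormone from the pituitary. It stood at 8.96, 8.38, 8.79 and 8.13 CPM in wild-type libraries and at 5.10, 5.17, 5.32 and 4.53 CPM in AE3-null libraries. The genotypes were again apart, with a narrow spread in both. Inha fell by 0.78 on the log2 scale (SE 0.097, edgeR adjusted p 0.000193), from 8.57 ± 0.377 to 5.03 ± 0.344 CPM (SD, n = 4).

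Obsl1 (Entrez 98733) had the largest change of the 28 members and the smallest spread among wild-type libraries, with a coefficient of variation of 1.10%. Wild-type libraries held 189, 191, 191 and 187 CPM, and AE3-null libraries 97.1, 96.5, 99.3 and 102 CPM. No AE3-null library came near the wild-type range. The level fell to 52.2% of the wild-type mean, a log2 fold change of -0.94 (SE 0.035, edgeR adjusted p 2.97e-11). Obsl1 and Inha are neighbours whose starts face away from each other on opposite strands.

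Tmem198 (Entrez 319998), a membrane protein gene described as an amplifier of Wnt signalling, was barely above the detection filter. Its counts were 15, 19, 16 and 21 in wild-type libraries and 19, 2, 13 and 15 in AE3-null libraries, which are mostly deeper. Scaled to library size these are 0.93, 1.30, 1.05 and 1.12 CPM against 0.80, 0.22, 0.68 and 0.55 CPM. The genotypes did not overlap, but the adjusted p was 0.0990 in edgeR's test (log2 -0.83, SE 0.288), so a difference was not established at this depth.

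Chpf (Entrez 74241) encodes a factor that works with chondroitin synthase to lengthen chondroitin sulfate chains. Wild-type libraries stood at 41.8, 46.9, 43.8 and 45.5 CPM and AE3-null libraries at 31.2, 32.7, 33.9 and 32.2 CPM. Chpf fell by 0.45 on the log2 scale (SE 0.053, edgeR adjusted p 0.000105), to 73.1% of the wild-type mean. Its start faces away from that of Tmem198 across the 60 bases shown above. In the gene models used (GENCODE release M21) no exonic base is shared between any of these 5 genes and another member. Whether reads were counted by strand is not given in the sources used here.

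The 3 other called members lie farther out, and each call was lost when any of several libraries was left out in turn. With 1 library left out their log2 fold changes kept their sign. These were -0.54 to -0.43 for Prkag3, -0.22 to -0.19 for Retreg2 and -0.19 to -0.12 for Des. Prkag3 (Entrez 241113) encodes the AMPK gamma subunit typical of fast skeletal muscle. It measured 5.99, 5.59, 4.72 and 5.88 CPM in wild-type libraries and 3.92, 4.42, 3.95 and 3.94 CPM in AE3-null libraries. Prkag3 fell by 0.47 on the log2 scale (SE 0.117, edgeR adjusted p 0.0227). The nearest libraries of the genotypes, wild-type replicate 3 and AE3-null replicate 2, were close together. Leaving out wild-type replicate 1 or 4, or AE3-null replicate 1, 3 or 4, ended the call (edgeR adjusted p up to 0.0852).

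Retreg2 (Entrez 227298), a relative of the receptors that deliver endoplasmic reticulum to autophagy, stood at 37.9, 37.7, 36.2 and 36 CPM in wild-type hearts. AE3-null libraries held 31.4, 33.8, 32 and 31.8 CPM, all below the wild-type range. Retreg2 fell by 0.20 on the log2 scale (SE 0.049, edgeR adjusted p 0.0213). Leaving out wild-type replicate 1 or 2, or AE3-null replicate 1, 3 or 4, ended the call (edgeR adjusted p up to 0.0755).

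Des (Entrez 13346), the desmin gene, had the highest level of the members per length of exon, at 661 CPM per kb in wild-type hearts. Wild-type libraries held 2394, 2654, 2298 and 2584 CPM and AE3-null libraries 2283, 2115, 2232 and 2280 CPM. The highest AE3-null library was just below the lowest wild-type library, replicate 3. Des fell by 0.16 on the log2 scale (SE 0.043, edgeR adjusted p 0.0431). The call was lost by limma voom (adjusted p 0.0580), with the replicate number as a block (0.0522) and when any library other than wild-type replicate 3 was left out (edgeR adjusted p up to 0.149).

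**Figure D2:**
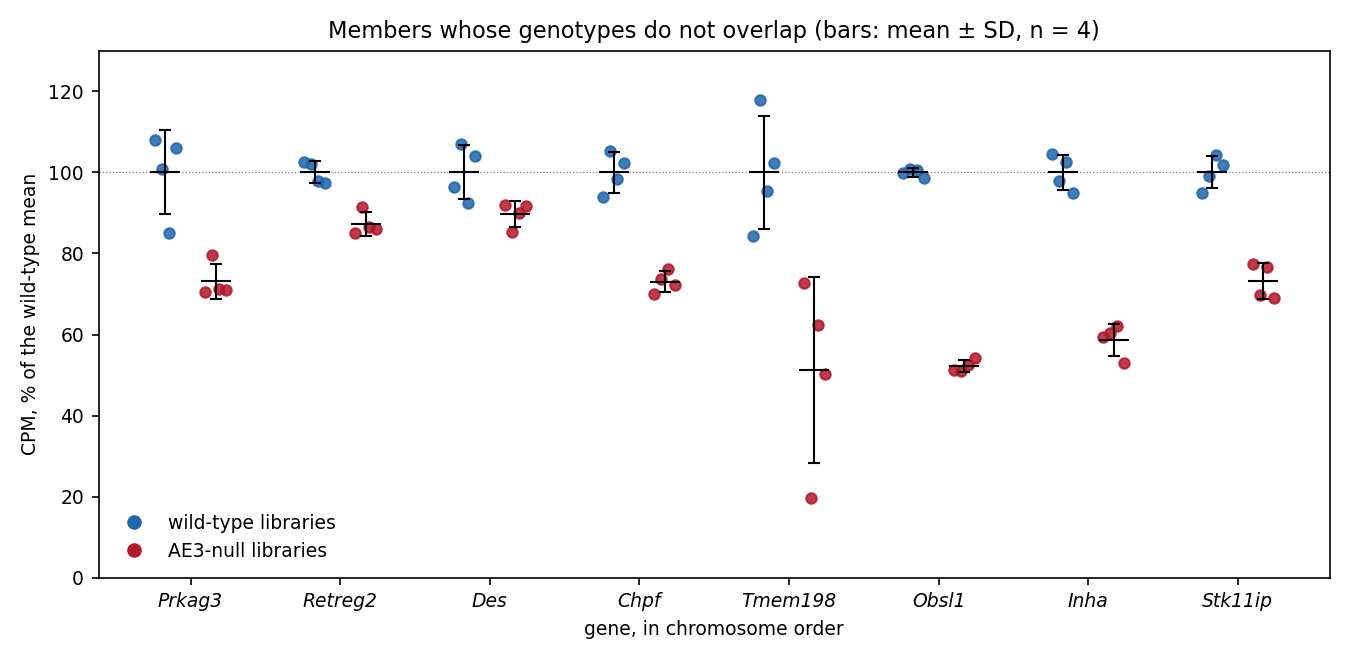
CPM of each library as a percentage of the gene's wild-type mean (y axis) for the 8 members whose genotypes did not overlap, with the mean and SD of 4 libraries as bars. Obsl1 is the most tightly grouped, with AE3-null libraries around 52.2%, while the AE3-null libraries of Tmem198 are widely spread and those of Des come close to the wild-type libraries.

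The muscle kinase gene Speg (Entrez 11790), beside Des, did not pass the test, with 395 to 466 CPM in wild-type and 372 to 427 CPM in AE3-null libraries (log2 -0.12, SE 0.068, edgeR adjusted p 0.369). Dnajb2, which encodes an HSP70 cochaperone, had a log2 fold change of -0.20 (SE 0.095, edgeR adjusted p 0.287). Its wild-type libraries held 134, 155, 110 and 144 CPM, so that replicate 3 alone was below all AE3-null libraries, at 114 to 122 CPM. Without wild-type replicate 3 Dnajb2 was called (log2 -0.28, edgeR adjusted p 0.00063), which made 8 called members. Wild-type replicate 3 was also the lowest wild-type library for Prkag3 and Des.

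Tuba4a, an alpha-tubulin gene, was the second most abundant member per length, at 234 CPM per kb in wild-type hearts against 33.7 for Speg and 31.9 for Dnajb2, the next in order. Tuba4a went from 867 ± 50.5 to 911 ± 61.9 CPM (SD, n = 4, log2 0.07, SE 0.051), less than the spread between libraries. Obsl1 stood at 22.4 CPM per kb in wild-type hearts, next to Atg9a, the membrane scramblase of early autophagosomes, at 22.8. In AE3-null hearts Obsl1 was at 11.7 and Atg9a at 22.2 CPM per kb. Atg9a itself had a log2 fold change of -0.04 (SE 0.037).

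Further members were not called either. The kinase gene Stk16 had a log2 fold change of 0.04 (77.4 to 79.4 CPM), the aminopeptidase gene Dnpep of 0.07 (64.5 to 67.4 CPM) and the mitochondrial porphyrin transporter gene Abcb6 of -0.08 (48.6 to 45.8 CPM). Zfand2b, whose product binds the proteasome, had the highest log2 fold change of the members, 0.18 (9.68 to 10.9 CPM, SE 0.087, edgeR adjusted p 0.246). Ankzf1, of ribosome quality control, was at -0.06 (21.3 to 20.4 CPM), the galactosidase-like gene Glb1l at -0.03 (11 to 10.6 CPM) and Cnppd1 at -0.07 (27.9 to 26.6 CPM). Stk16 and Tuba4a share 1379 exonic bases on opposite strands and Ankzf1 and Glb1l 505, so the reads of each pair cannot be assigned with certainty.

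The remaining tested members were also not called. Bcs1l, the assembly factor of respiratory complex III, had a log2 fold change of 0.01 (27.8 to 28 CPM), and the sterol hydroxylase gene Cyp27a1 of -0.01 (30.2 to 30.03 CPM). The zinc finger gene Zfp142 was at -0.06 (31.3 to 30.2 CPM), the ubiquitin ligase gene Rnf25 at 0.03 (13.6 to 13.8 CPM) and the tubulin-modifying enzyme gene Ttll4 at -0.01 (15 to 14.8 CPM). Nhej1, of DNA end joining, was at 0.08 (3.34 to 3.60 CPM), Ptprn, a secretory granule protein gene of neuroendocrine cells, at 0.05 (8.04 to 8.11 CPM), and Stk36, of cilia and Hedgehog signalling, at 0.09 (1.23 to 1.27 CPM, SE 0.238). Gmppa, a regulator of GDP-mannose synthesis, went from 27.2 to 29.2 CPM.

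The 9 members below the filter were Wnt6, Wnt10a, Cdk5r2, Fev, Cryba2, Ihh, Slc23a3, Resp18 and Asic4. Wnt6 had 3 to 13 counts per library, Slc23a3 3 to 10 and Ihh 1 to 4. Cdk5r2 reached 3 counts in a library, and Wnt10a, Fev, Resp18 and Asic4 reached 1. Cryba2 had 0 counts in all 8 libraries, which allows up to 0.328 CPM in the shallowest library (3 counts, counting error only). These are genes of secreted developmental signals, neurons, eye lens and epithelial transport, and no difference between genotypes was detectable in them at this depth.

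Beyond the 37 members, the next 28 tested genes in chromosome order, farther from Slc4a3, held 2 called genes (7.14%), both lower. Myl1, a myosin light chain gene, fell from 75.4 ± 4.98 to 16.3 ± 1.5 CPM (SD, n = 4, log2 -2.21), and Acadl, of fatty acid oxidation, fell by 0.14. On the other side of Slc4a3 the next 28 tested genes held 4 called genes (14.3%), 2 higher and 2 lower. The nearest of them in gene order, Epha4 (Entrez 13838), a receptor for ephrins, is not among the genes wholly within 1 Mb of Slc4a3, and it rose. Its wild-type libraries held 84.4, 76.7, 76.5 and 81.3 CPM and its AE3-null libraries 124, 122, 108 and 129 CPM. The log2 fold change of Epha4 was 0.60 (SE 0.054, edgeR adjusted p 1.99e-05), opposite in sign to the 5 members on the near side of Slc4a3. Sphkap had a log2 fold change of 0.64, Irs1 of -0.29 and Wdfy1 of -0.17. The calls of these last 3 were each lost with at least 4 of the 8 libraries left out in turn, wild-type replicate 4 and AE3-null replicates 1 and 4 among them for each (edgeR adjusted p up to 0.141), and that of Wdfy1 also with scaling by total counts.

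**Figure D3:**
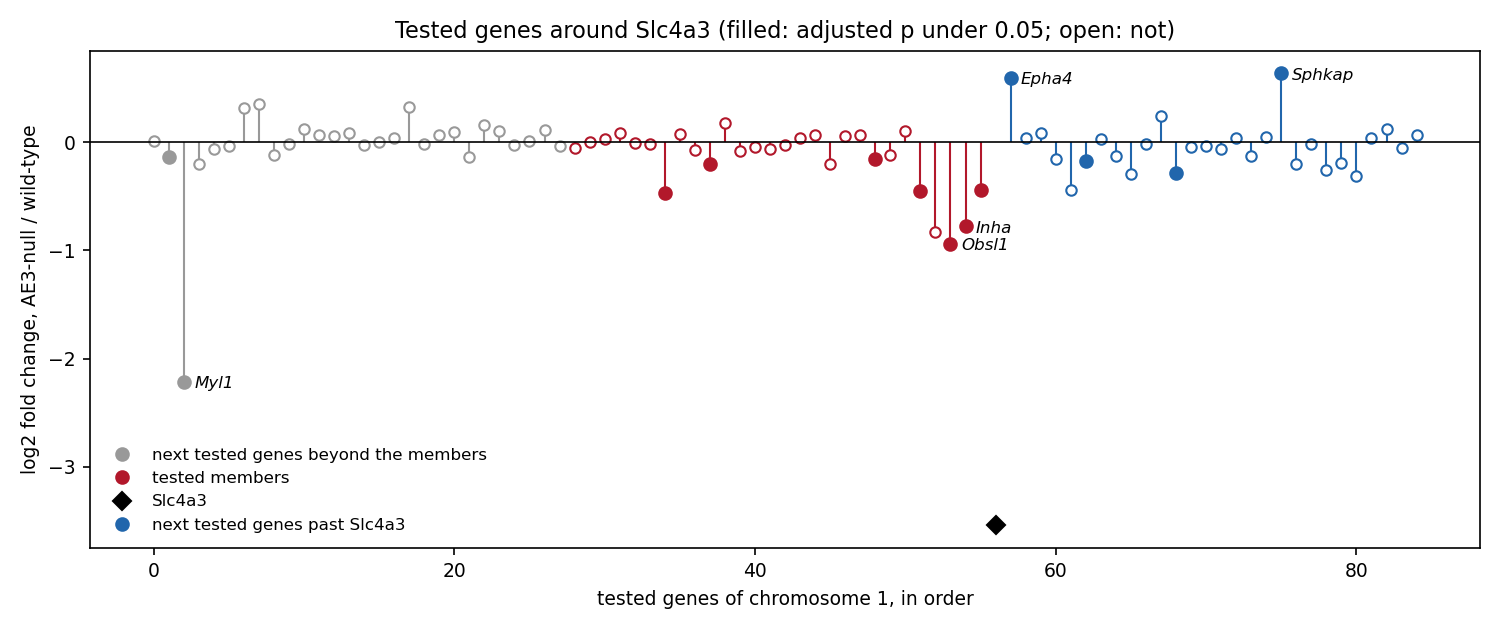
The log2 fold change (y axis) of the 28 tested members in red, the next 28 tested genes beyond them in grey and the next 28 past Slc4a3 in blue, in chromosome order (x axis), with filled points for an adjusted p under 0.05. The x axis shows order and not distance. The row of low values just before Slc4a3 ends at Chpf, and Myl1 stands alone at -2.21. Epha4, the next tested gene after Slc4a3 but not among those wholly within 1 Mb of it, is at 0.60.

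The partners of the members elsewhere in the genome were followed in 13 lists. Of 173 tested partners 6 rose (3.47%) and 8 fell (4.62%), shares close to the 3.16% and 3.31% of all tested genes. These shares are pooled over the lists and do not show whether a single list differs. The counts below rest on few genes for each list, and no list was tested as a set. The obscurin and M-band partners of Obsl1 had 2 of 9 risen and 0 fallen: the M-band gene Myom2 rose from 1181 ± 115 to 1555 ± 34.8 CPM (SD, n = 4, log2 0.40) and Cul7, a subunit of the ubiquitin ligase that contains Obsl1 protein, rose by log2 0.22. Their median was -0.0048. The desmin partner list had 0 risen and 3 of 13 fallen, Myot by 0.91 on the log2 scale, the small heat shock protein gene Cryab by 0.32 and the cytolinker gene Plec by 0.17, with a list median of -0.13. Of 11 partners of Speg and of the membrane junction, Jph2 fell by 0.20 and Cav3 rose by log2 0.18 (list median -0.04).

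Of 10 AMPK subunits and upstream kinases, partners of Prkag3, 2 rose: the gamma subunit gene Prkag2 by log2 0.39, from 31 ± 1.92 to 40.3 ± 4.11 CPM (SD, n = 4), and the beta subunit gene Prkab1 by 0.26 (list median 0.07). In the autophagy and ER-phagy list 1 of 19 fell, Atg13, by 0.31 (median -0.05). In the tubulin list 2 of 18 fell, Tuba1a by 0.22 and Ttll5 by 0.24 (median -0.06). The Wnt list had 1 of 17 fallen, Lrp5, by 0.21 (median 0.01), and the end joining list 1 of 9 risen, Lig4, by log2 0.29 (median 0.03). By edgeR none was called among 12 Hedgehog, 11 inhibin and activin, 16 DNAJB and HSP70, 14 complex III, and 14 chondroitin and mannose genes, whose medians were 0.08, -0.13, -0.13, -0.01 and 0.08. Of these 67 genes 13 had an unadjusted p under 0.05, and DESeq2 called 2 and limma voom 1, all in the DNAJB and HSP70 list. Among all 14136 tested genes 1384 were higher and 1590 lower at that unadjusted edgeR p, so the 13 do not set these lists apart.

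Leaving out a library ended some of these partner calls. Those of Jph2 and Prkab1 were lost without wild-type replicate 4 (edgeR adjusted p 0.0536) and AE3-null replicate 4 (0.0576). Those of Cav3 and Tuba1a were lost without wild-type replicate 4 or AE3-null replicate 4, that of Cav3 also without AE3-null replicate 3, and that of Tuba1a also without AE3-null replicate 1. Those of Cul7 and Lig4 were lost without any library other than wild-type replicate 3 and AE3-null replicate 2, and that of Ttll5 without any other than wild-type replicate 3 (edgeR adjusted p up to 0.122). Ttll5 was also not called by DESeq2, with scaling by total counts or with the replicate number as a block.

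The RNA came from whole hearts, so fewer cells of a type and less RNA per cell cannot be told apart. Markers of 9 cell types were read in the same libraries, and each sum covers every marker with a row in the counts table, tested or not. Of 8 atrial muscle markers 7 rose, with a summed level of 3045 to 3596 CPM in wild-type and 4040 to 4660 CPM in AE3-null libraries. Of 10 endothelial markers 4 fell (sum 1721 to 1913 against 1537 to 1594 CPM). Of 8 smooth muscle and pericyte markers 2 rose (sum 1322 to 1372 against 1423 to 1531 CPM), with log2 fold changes over the list from -0.10 to 0.32. Of 13 neuronal and neuroendocrine markers 5 were tested, with log2 fold changes from -0.28 to 0.82. Only Dbh was called higher, with a mean of 3.95 CPM in wild-type and 6.90 CPM in AE3-null libraries. The sum over all 13 was 18.6 to 22.5 against 23.6 to 25.7 CPM. Red cell markers summed to 4059 to 6474 CPM in wild-type and 2818 to 3928 CPM in AE3-null libraries. Of 5 tested red cell markers edgeR called 0, with 4 at an unadjusted p under 0.05, while DESeq2 and limma voom each called 4 as lower, Hba-a1 and Hba-a2, near-identical copies with the same values, among them. The 10 skeletal muscle markers, of which heart shares some, summed to 2297 to 2466 against 2137 to 2295 CPM. The 6 tested ones had log2 fold changes from -0.20 to 0.13, with 0 called by edgeR, DESeq2 or limma voom and 1 at an unadjusted p under 0.05. General cardiomyocyte markers overlapped in sum between genotypes (84884 to 91666 against 85136 to 91822 CPM), with 2 of 8 called higher. Fibroblast markers also overlapped (1860 to 2155 against 1963 to 2051 CPM), with 1 of 9 called lower, and so did macrophage and leukocyte markers (373 to 440 against 371 to 432 CPM), with 0 of 10 called by edgeR or limma voom, 1 by DESeq2 and 1 at an unadjusted p under 0.05. With a library left out, 1 to 4 endothelial markers were called lower, with 1 without AE3-null replicate 4 and 2 without AE3-null replicate 1 or 2. Of smooth muscle and pericyte markers 1 was called without AE3-null replicate 4, and of cardiomyocyte markers 1 without any library other than AE3-null replicate 4. No fibroblast marker was called by edgeR without any library other than wild-type replicate 3 (3 higher and 1 lower without it), with scaling by total counts or with the replicate block. DESeq2 and limma voom each called 1 fibroblast marker higher and 1 lower. Among macrophage and leukocyte markers edgeR called 1 higher with the replicate block and 1 lower without AE3-null replicate 1. Among red cell markers edgeR called 1 lower without wild-type replicate 2 or AE3-null replicate 4. No marker was at 0 in all libraries, and the part of these shifts in the members' values was not tested.

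The 4 called members nearest to Slc4a3 (Stk11ip, Inha, Obsl1 and Chpf) kept their calls in all 15 refits, among them each library left out in turn, and at an adjusted p under 0.01. The log2 fold change of Obsl1 stayed between -0.95 and -0.92, that of Inha between -0.81 and -0.72, that of Stk11ip between -0.47 and -0.41 and that of Chpf between -0.48 and -0.43. Tmem198 was not called in any of the 13 refits that gave it an adjusted p.

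**Figure D4:**
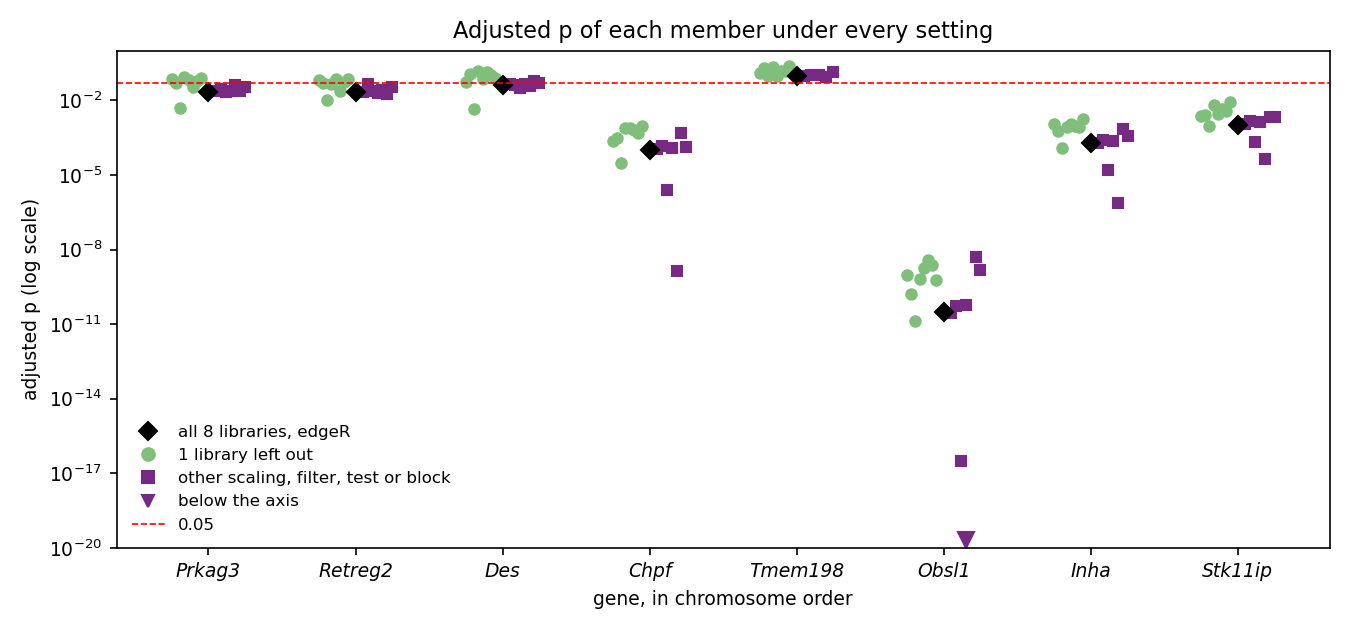
Adjusted p (y axis, log scale) of the 8 members whose genotypes did not overlap, with all 8 libraries (black), with a library left out (green), and with other scalings, filters, tests or the block (purple); the value of Obsl1 by DESeq2 lies below the axis and is drawn as a triangle. Chpf, Obsl1, Inha and Stk11ip stay under the dashed line at 0.05 in every setting, Tmem198 stays above it, and Prkag3, Retreg2 and Des fall on both sides.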

How the data were processed

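Read counts per gene, deposited by the authors without normalization, were used for 4 wild-type and 4 AE3-null heart libraries. The submitters' processing notes name bcl2fastq, CASAVA 1.8, TopHat and DESeq as tools and mm9 as the genome. No counting program or strand setting is given in the sources used here. Totals ranged from 9133628 to 27078351 counts per library. Entrez numbers were matched to RefSeq symbols (GRCm38.p6) for 23185 of 23282 genes, and that assembly was used for gene order, names, promoter sequences and, through GENCODE release M21, strands and exonic length.

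All genes passing edgeR's filterByExpr (minimum count 10) were fitted together with TMM factors and edgeR's robust quasi-likelihood test (edgeR 4.0.16, R 4.3.3), with Benjamini-Hochberg adjustment over 14136 genes and a call at an adjusted p under 0.05. CPM uses TMM-scaled library sizes. The SE is the log2 fold change divided by the root of its F. DESeq2 1.42.0, limma voom 3.58.1, other scalings, filters, each library left out and a replicate block were alternatives.

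Members were selected by position, but this neighbourhood was taken up, and the lists were chosen, with earlier results of these data known. Named were members that were called, did not overlap or were among the 3 nearest to Slc4a3 (all 8 libraries), the other members by means, up to 3 called partners of each list and up to 5 called flanking genes a side. Dnajb2 and the group of 5 were chosen after their values were seen. On simulated counts of 14136 genes for this comparison, the test recovered 31 of 50 genes set to a 1.25-fold change, 38 of 50 at 1.5-fold, and 48 of 50 at 2-fold, and 17 of 182 calls were of unchanged genes. No library was a copy of another: chi-square values between replicates were 2.51 to 7.40 for each gene on average.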

Additional observations from a re-analysis of the deposited data

Results flagged for a closer look

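Among 58 groups of 4 libraries (28 members and Slc4a3, each genotype), 5 held a library whose gap to the others was above Dixon's 95% critical value, which chance exceeds in about 1 in 20 groups. Prkag3 was at 4.42 CPM in AE3-null replicate 2 and at 3.92 to 3.95 CPM in the other 3. Abcb6 was at 53.2 CPM in wild-type replicate 2 against 46.7 to 47.5 CPM, and at 49.9 CPM in AE3-null replicate 4 against 44.3 to 44.7 CPM. Atg9a was at 127.0 CPM in wild-type replicate 3 against 132.9 to 133.5 CPM. Tuba4a was at 1003 CPM in AE3-null replicate 4 against 874 to 893 CPM.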

How the results depend on the processing

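Under the 16 alternatives, the count of called members was 7, or 6 by limma voom and under the replicate block, and 4 at an adjusted p under 0.01 (also 4 called lower), where 304 of all tested genes were called. With 1 library left out it ranged from 4 to 8, and the same range held for members called lower. It was 4 without wild-type replicate 1, AE3-null replicate 1, 3 or 4. Over all genes the lowest number of calls was 407, when AE3-null replicate 4 was left out, and the highest 1727, when wild-type replicate 3 was. It was 431 without wild-type replicate 4, 581 without AE3-null replicate 1 and 569 without AE3-null replicate 3. The 5 nearest members, an alternative added after the data were seen, had 4 called in every setting, and members called higher were 0 in every setting. None of the 7 called members, nor Tmem198, changed sign. Of the 28 tested members 7 did in at least 1 alternative, all with a log2 fold change of at most 0.0902 in size: Ttll4 and Cyp27a1 with scaling by total counts and with some libraries left out, and Zfp142, Bcs1l, Stk36, Glb1l and Ptprn with some libraries left out. Samples with the same replicate number did not deviate together (correlations -0.04 to 0.16, and only replicate 1 matched best with its own number). With the replicate number as a block, Des was not called (log2 -0.15, edgeR adjusted p 0.0522), 6 members were called and 1002 of all genes. Depth limits Tmem198 and the 9 members below the filter.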
